A study of Mus musculus with 4 samples.

Results

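Broad H3K27ac domains shared by both libraries at the ends of protein-coding genes were examined in mouse liver sinusoidal endothelial cells (LSECs), the fenestrated cells that line the capillaries of the liver. The domains were chosen by the measured peaks themselves. Peaks of both libraries were pooled, peaks that shared at least 1 bp were merged, and merged regions that held a peak of each library were kept. A domain was such a region that was at least 2000 bp wide and overlapped a window of 1 kb either side of an end of a protein-coding gene body. This gave 508 domains among 8987 shared regions at gene ends, 24199 shared regions, and 64629 merged regions in all. The domains made up 5.65% of shared regions at gene ends (95% Wilson interval, 5.19% to 6.15%, covering the counting of regions only), and the other 8479 are called narrow regions here. Another 234 shared regions were as wide but lay away from gene ends. The libraries are named replicates 2 and 3 after their titles, and each has an input library that was not analysed here on its own. Both were made from mouse LSECs with an antibody against H3K27ac. The records give no genotype, strain, sex, age, or treatment of the mice, and nothing says whether the libraries came from separate animals. The methods name several mouse lines as sources of LSECs, purified on beads against CD146, a surface protein that other endothelial cells also carry, and do not say which line was used for H3K27ac. They describe a tagmentation-based library, whereas the records describe sonication and a ligation kit. Both libraries belong to 1 condition, so no comparison between conditions was possible. Because peak positions chose the domains, their widths, peak numbers, and peak heights are described with no test.

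H3K27ac is an acetylated lysine in the tail of histone H3, placed by the acetyltransferases p300 and CBP at active promoters and enhancers and removed by histone deacetylases. At most active promoters it flanks the transcription start over a short distance. Some genes carry it over a much longer stretch, and such broad domains are known at genes of cell identity and at genes that respond fast to signals. Peak callers draw the edge of a domain where signal falls to background, so a called width depends on depth as well as on the chromatin.

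The sequences of a few promoters are shown first, because the CpG content of the start regions is a property that the choice of domains did not use. Each run is the 250 bases upstream of an annotated start, written 5′ to 3′ on the gene's strand, from RefSeq (GRCm38.p6), with CpG dinucleotides in capitals. For each of 5 gene lists the gene with the widest domain holding its start was taken, together with the promoters of lowest and highest CpG ratio among those whose start lay inside the domain.
Nfkbia: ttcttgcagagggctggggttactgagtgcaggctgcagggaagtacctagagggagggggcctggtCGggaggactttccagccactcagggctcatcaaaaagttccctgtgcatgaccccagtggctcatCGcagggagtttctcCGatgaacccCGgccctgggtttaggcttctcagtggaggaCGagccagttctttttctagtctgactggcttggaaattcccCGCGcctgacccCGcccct
Ier3: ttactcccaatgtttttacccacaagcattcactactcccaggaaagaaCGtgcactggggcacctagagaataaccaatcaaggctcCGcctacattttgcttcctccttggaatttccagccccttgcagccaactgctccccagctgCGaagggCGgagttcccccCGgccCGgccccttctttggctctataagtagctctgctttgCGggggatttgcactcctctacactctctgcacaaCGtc
Klf6: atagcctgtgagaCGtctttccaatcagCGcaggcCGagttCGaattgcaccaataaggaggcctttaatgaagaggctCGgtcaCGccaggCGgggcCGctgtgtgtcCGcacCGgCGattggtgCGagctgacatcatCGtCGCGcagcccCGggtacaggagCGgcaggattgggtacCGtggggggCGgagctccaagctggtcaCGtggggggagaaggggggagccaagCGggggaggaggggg
Tgif1: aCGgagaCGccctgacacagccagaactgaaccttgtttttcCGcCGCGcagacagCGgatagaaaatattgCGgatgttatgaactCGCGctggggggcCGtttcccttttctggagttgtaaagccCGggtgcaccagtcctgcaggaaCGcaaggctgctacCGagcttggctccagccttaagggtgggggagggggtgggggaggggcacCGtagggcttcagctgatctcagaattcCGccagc
Eng: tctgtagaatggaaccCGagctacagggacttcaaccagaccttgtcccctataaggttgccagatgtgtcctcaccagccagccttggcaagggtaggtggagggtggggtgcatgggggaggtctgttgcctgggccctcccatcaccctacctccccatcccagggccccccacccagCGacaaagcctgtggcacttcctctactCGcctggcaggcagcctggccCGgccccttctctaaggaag
Gm45095: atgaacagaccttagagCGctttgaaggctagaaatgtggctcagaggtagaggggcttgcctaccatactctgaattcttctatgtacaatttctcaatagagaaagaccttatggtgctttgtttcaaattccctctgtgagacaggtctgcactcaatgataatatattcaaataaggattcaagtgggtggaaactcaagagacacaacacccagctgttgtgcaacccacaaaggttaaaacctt
Kdm7a: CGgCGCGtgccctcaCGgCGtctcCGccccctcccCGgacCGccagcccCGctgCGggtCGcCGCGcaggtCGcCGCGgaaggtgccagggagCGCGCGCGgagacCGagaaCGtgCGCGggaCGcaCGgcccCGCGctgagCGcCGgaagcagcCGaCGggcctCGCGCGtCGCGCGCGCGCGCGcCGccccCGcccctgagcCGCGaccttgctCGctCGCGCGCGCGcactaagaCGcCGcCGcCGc
The run of *Nfkbia* lies at chr12:55492648-55492897 on the minus strand and holds 8 CpG dinucleotides. That of *Ier3* lies at chr17:35821463-35821712 on the plus strand, also with 8. The *Klf6* run, at chr13:5861239-5861488 on the plus strand, holds 21. The *Tgif1* run, at chr17:70853533-70853782 on the minus strand, holds 15. In *Eng*, at chr2:32646345-32646594 on the plus strand, there are 4, and the run begins before the domain does. The run of *Gm45095*, a predicted gene that shares its domain with *Cebpg*, lies at chr7:35055233-35055482 on the plus strand and holds 1. The run of *Kdm7a*, a histone demethylase gene, lies at chr6:39206774-39207023 on the minus strand and holds 56.

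The observed to expected CpG ratio was computed over 300 bases, from 250 upstream to 50 downstream of the start nearest the 5′ end of the gene body. Of the 605 genes at broad domains, 493 had a sequence in the table. Their median ratio was 0.856 (quartiles, 0.702 and 0.982), against 0.798 for 7348 promoters at narrow regions. Over all 17492 protein-coding promoters in the table the median was 0.577, and over the 9651 without a shared region it was 0.274. The median GC content followed the same order, with 66.3%, 61.3%, 56.3%, and 50.7%. Most of the distance thus lay between promoters with and without a shared region, and the median of broad domains exceeded that of narrow regions by less than the width of either group's quartiles. A ratio under 0.4 was found at 34 promoters of genes at broad domains (6.90%), at 9.21% for genes at narrow regions, and at 39.1% of all promoters. *Eng*, which encodes the coreceptor endoglin, was one of them with 0.202, and *Gm45095* had the lowest value of the promoters whose start lay inside the domain, 0.0892. At *Gm20783*, *Best1*, *Iqcn*, *Septin4*, and *Setd5* the ratio was lower (0 to 0.0861), but there the start used lay outside the domain. The highest was 1.29 at *Kdm7a*. *Nfkbia* and *Ier3*, both fast-responding genes, had 0.539 and 0.494, below the median of all promoters. Genes at broad domains were 23.9 kb long at the median, those at narrow regions 21.9 kb, and all protein-coding genes 17.2 kb. Genes that share a domain share these values in part, so no test across genes was made. Genes were taken by either end, so some of the starts used lay outside the region. Of regions with known strand, 93.8% of domains and 85.1% of narrow regions held an annotated start. The part of this in the differences between broad and narrow regions was not tested.

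**Figure D1:**
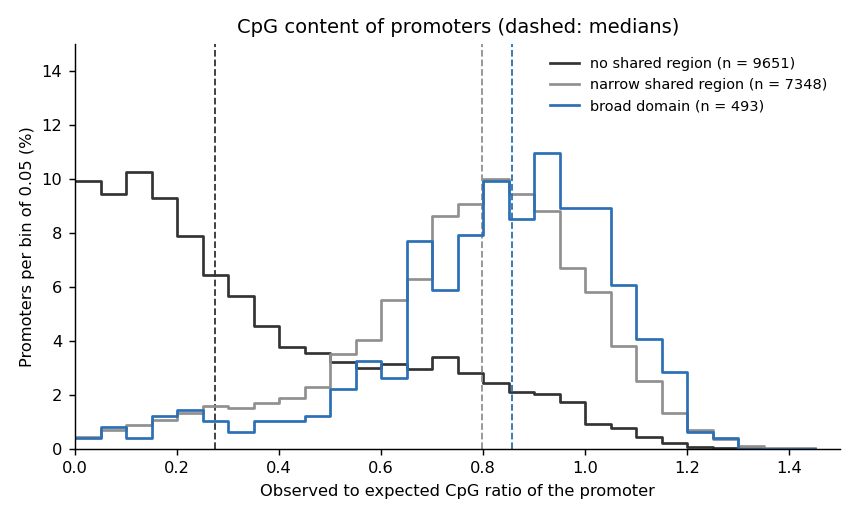
Share of promoters (y axis, %) in bins of 0.05 of the observed to expected CpG ratio (x axis, no unit) for 493 genes with a broad domain, 7348 with a narrow shared region only, and 9651 with no shared region. Dashed lines mark medians of 0.856, 0.798, and 0.274, so the curves of broad and narrow regions overlap over most of their range while promoters without a shared region lie at low ratios.

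Short motifs were counted in the same 300 bases on both strands. The GC box GGGCGG, which binds Sp/KLF factors, was present in 75.9% of promoters at broad domains, 68.0% at narrow regions, and 46.3% of all promoters. The CCAAT box CCAAT, bound by NF-Y, was present in 37.1%, 41.1%, and 39.2%. TATAAA was found in 8.93%, 6.396%, and 13.3%, and the E-box CACGTG in 12.8%, 10.9%, and 7.91%. The core bound by ETS factors, CCGGAAG, was present in 15.6% of promoters at broad domains and in 21.3% at narrow regions, against 11.9% of all. For the AP-1 site TGANTCA the shares were 4.26%, 4.30%, and 7.03%, and for the cyclic AMP response element TGACGTCA they were 3.25%, 3.797%, and 2.33%. The serum response element was found in 2.23%, 1.17%, and 1.56%, and the NF-κB consensus in 11.6%, 10.2%, and 8.86%. The GC box was the motif whose share differed most, in percentage points, between broad and narrow regions, and its letters include a CpG dinucleotide. In the runs printed above, *Nfkbia* held 1 match to the NF-κB consensus and 1 GC box, and *Ier3* held 1 of each and 2 CCAAT boxes. *Klf6* held 4 CCAAT boxes, 1 GC box, and 1 E-box, and *Kdm7a* held 3 GC boxes and 1 ETS core. *Tgif1*, *Eng*, and *Gm45095* matched none of these motifs within their 250 bases. A match describes the letters only, and here too some of the starts used lay outside the region.

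Domains ranged from 2000 to 11581 bp in width, with a median of 2315 bp and quartiles of 2124 and 2699 bp. Of the 508, 177 were at least 2500 bp wide, 72 at least 3000 bp, 15 at least 4000 bp, and 7 at least 5000 bp. The boundary at 2000 bp cut through a continuous range of widths. Just inside it lay *Sertad1* (2003 bp), *Phlpp1* and *Rasa3* (2002 bp each), and *Rap2a* (2001 bp). Just outside lay *Arih1* (1999 bp), *Luc7l2* (1998 bp), *Arhgap12* (1997 bp), the region at *2010109A12Rik* and *Ccni* (1995 bp), and *Arhgdib* (1993 bp). The highest fold enrichment over background, a ratio given by the peak caller, was 33.2 to 50.03 in replicate 2 for those inside and 14.7 to 31.2 for those outside. In replicate 3 it was 67.6 to 97.6 inside and 26.6 to 146.9 outside.

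The called width was that of replicate 3. In that library 497 of the 508 domains were a single peak, and 501 (98.6%) held a peak of at least 2000 bp. In replicate 2 only 20 domains (3.94%; 95% Wilson interval, 2.56% to 6.003%) held a peak of that width. Replicate 2 had 1 peak in 167 domains, 2 in 204, 3 in 105, and 4 or more in 32, and these covered a median of 54.1% of the domain (quartiles, 41.8% and 66.2%). The lists themselves differed in the same way, with 26975 peaks in replicate 2 (31 of at least 2000 bp) and 64498 in replicate 3 (735). Read numbers are not given in the lists, which leaves sequencing depth unknown, and its part in the widths was not tested. When regions were built from the peaks of 1 library alone, 19 at gene ends reached 2000 bp in replicate 2 and 503 in replicate 3. The 20 domains with a replicate 2 peak of that width all held a replicate 3 peak of that width too, and included those at *Frmd8* (3628 bp in replicate 2), *Gm20783* with *LOC108167694* (3151 bp), *Tgif1* (2852 bp), *Jun* (2782 bp), *Psmd11* (2552 bp), *Brd2* with *H2-DMa* (2510 bp), *Zc3h4* (2448 bp), *Sqstm1* (2311 bp), and *Ubb* (2268 bp). Another 10 lay at *Kmt2e*, *Opa3*, *Alyref2*, *Ptpn12*, *Ell*, *Zfp703*, *Setd5*, *Akt1s1* with *Tbc1d17*, *Ednrb*, and *Chic2*, with replicate 2 peaks of 2000 to 2245 bp. *Ubb*, a polyubiquitin gene, and *Psmd11*, a proteasome subunit gene, stand among them, as does *Sqstm1*, whose product carries ubiquitinated cargo to autophagy. When shared regions at gene ends were ranked instead by the bases that replicate 2 peaks covered, 313 of the first 508 (61.6%) were domains, and the shortest cover in that set was 1136 bp.

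**Figure D2:**
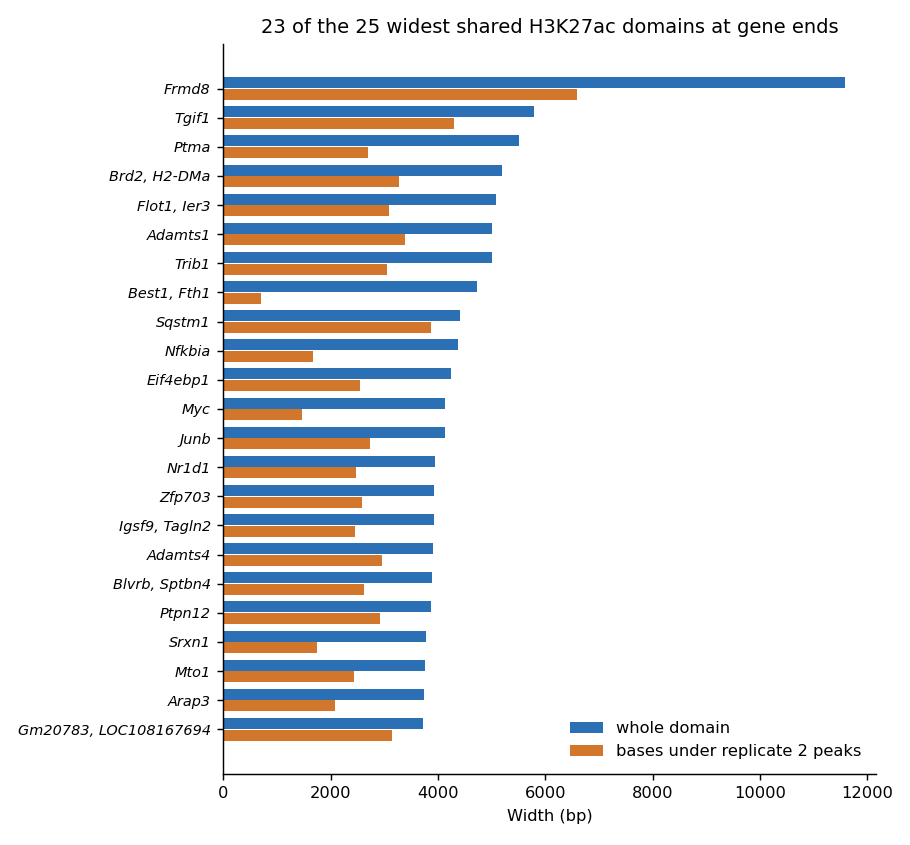
Width in bp (x axis) of 23 of the 25 widest domains, named by the protein-coding genes at whose ends they lie, with the whole domain in blue and the bases under replicate 2 peaks in orange. The widest reached 11581 bp with 6588 bp under replicate 2 peaks, and the domain at *Best1* and *Fth1* shows the smallest replicate 2 cover of these 23 with 710 bp.

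The widest domain, chr19:5839281-5850861, met the end of *Frmd8*, but *Neat1*, a long noncoding RNA that builds nuclear paraspeckles, also ends or begins there. It was 1 peak in replicate 3 and 11 peaks in replicate 2, with highest folds of 46.6 and 30.2, and it held no annotated start of *Frmd8*, whose start lay 24347 bp away. *Tgif1*, which encodes a corepressor of Smad signaling, had 5784 bp with folds of 23.7 in replicate 2 and 70.4 in replicate 3. *Ptma*, the prothymosin-α gene, had 5514 bp with 37.8 and 105.5. The domain at *Brd2*, which encodes a reader of acetylated histones, and *H2-DMa*, an antigen-loading gene, was 5195 bp wide with 30.5 and 64.7. At *Ier3* and *Flot1* it was 5089 bp (30.5 and 47.1), at *Adamts1*, a secreted metalloprotease gene, 5015 bp (43.3 and 45.3), and at *Trib1* 4998 bp (35.9 and 74.3). Among these the replicates gave different orders. *Adamts1* was the highest of these 7 in replicate 2 and the lowest in replicate 3.

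Another 16 of the 25 widest measured 3716 to 4731 bp. They lay at *Best1* with *Fth1*, *Sqstm1*, *Nfkbia*, *Eif4ebp1*, *Myc*, *Junb*, *Nr1d1*, *Zfp703*, *Igsf9* with *Tagln2*, *Adamts4*, *Blvrb* with *Sptbn4*, *Ptpn12*, *Srxn1*, *Mto1*, *Arap3*, and *Gm20783* with *LOC108167694*. Their products act in many pathways. *Fth1* encodes the heavy chain of ferritin, *Srxn1* sulfiredoxin of the antioxidant response, *Eif4ebp1* a repressor of translation, and *Nr1d1* the clock repressor REV-ERBα. Fold and width did not go together in this set. *Blvrb* with *Sptbn4* had 39.99 in replicate 2 and 145.4 in replicate 3 over 3897 bp. *Best1* with *Fth1* had 6.10 and 7.45 over 4731 bp, the lowest replicate 3 fold of all domains. It also had the lowest replicate 2 fold, which *Gm38664* (22.5 in replicate 3) and *Rbms1* (13.4) shared.

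Peak height varied widely among the domains. The highest fold in replicate 2 ranged from 6.10 to 60.9 with a median of 25.8 (quartiles, 17.6 and 33.8), and in replicate 3 from 7.45 to 169 with a median of 63.1 (quartiles, 44.2 and 89.6). The top values were at *Ppp2r1a*, the scaffold subunit of protein phosphatase 2A, in replicate 2 (60.9, with 158.4 in replicate 3) and at *Nudt6* with *Spata5* in replicate 3 (169, with 49.4 in replicate 2). Narrow regions had medians of 14.2 and 41.8, and the 234 wide regions away from gene ends had 20.3 and 48.1. A domain was in the top 10% of its library's peaks by fold in 51.4% of cases in replicate 2 and 73.4% in replicate 3, against 19.9% and 45.8% of narrow regions. Below the median of the list stood 20 domains in replicate 2 and 1 in replicate 3. The median number of peaks in a region was 2 in domains and 1 in narrow regions for replicate 2, and 1 in both for replicate 3. The part of the choice by width in these differences was not tested. Within the domains, width and fold were nearly unrelated (Spearman's rank correlation, −0.017 in replicate 2 and −0.146 in replicate 3 over 508 domains). The cut at 2000 bp narrows the range of widths, so these values do not describe width and fold over all shared regions. The libraries ranked the domains alike by fold (rank correlation, 0.798 over 508 domains, 0.875 over 8479 narrow regions), and the points share genome position, base composition, and peak caller. The folds of replicate 2 took only 240 distinct values over the 508 domains, against 442 in replicate 3, so small differences in replicate 2 were not resolved.

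**Figure D3:**
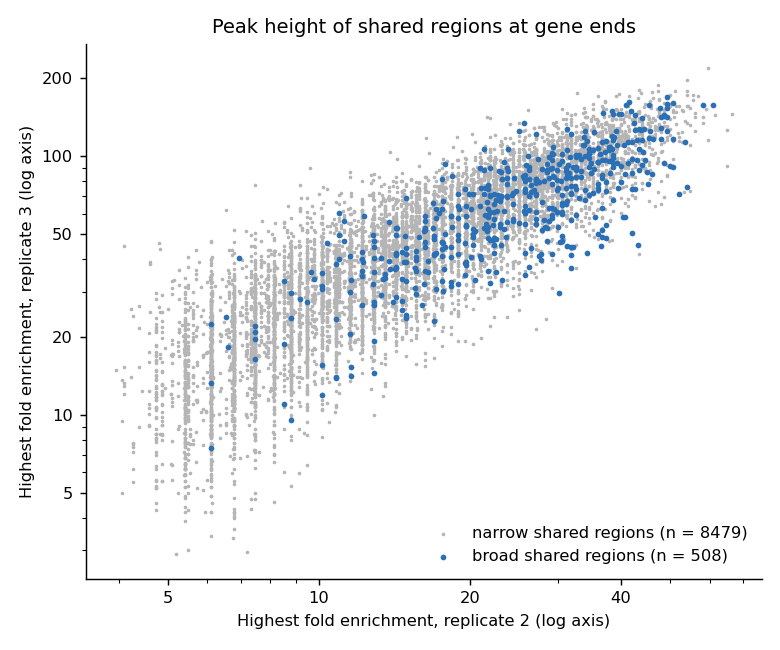
Highest fold enrichment (ratio, log axes) of each shared region at a gene end in replicate 2 (x axis) and replicate 3 (y axis), with 508 broad domains in blue and 8479 narrow regions in gray. Broad domains lie along the same diagonal as narrow ones, toward its upper end, with medians of 25.8 and 63.1 against 14.2 and 41.8, and the vertical stripes at low values are repeated replicate 2 folds.

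The word promoter was checked against annotated starts. Strand was known for a gene at 417 domains, and 391 of these (93.8%) held an annotated start of a protein-coding gene, against 85.1% of 7010 narrow regions. Wider regions reach more starts by construction. The 26 without a listed start had a median width of 2504 bp, and 16 of them met only the 3′ ends of genes of known strand. Of the 25 widest domains, those at *Frmd8*, *Best1* with *Fth1*, *Nfkbia*, and *Mto1* met only a 3′ end. Domains of both kinds were kept, as the rule used either end.

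Several short genes carried a domain at each end. *Nfkbia*, which encodes the NF-κB inhibitor IκBα, had one of 2916 bp over its start (chr12:55490078-55492993; folds of 33.0 and 69.2) and, 24 bp away, one of 4374 bp at its 3′ end (chr12:55485680-55490053; 13.4 and 33.6). *Junb*, an AP-1 subunit gene, had 4123 bp over its start (34.6 and 71.0) and, after a gap of 137 bp, 2927 bp at its 3′ end, which *Prdx2* shares (29.1 and 41.9). *Dusp1*, a MAP kinase phosphatase gene, had 3575 bp (21.5 and 54.9) and 3478 bp (10.8 and 38.5) with a gap of 1060 bp. In *Ftl1*, the ferritin light chain gene, the start lay in a domain of 3072 bp (36.0 and 49.98), and one of 3544 bp (12.9 and 14.6) followed after 778 bp. In these 4 genes the domain over the start had the higher fold in both libraries. *Ednrb*, an endothelin receptor gene, differed. Its domains of 3254 bp at the start (16.5 and 39.4) and 2321 bp at the other end (20.4 and 33.3) lay 24344 bp apart, and the libraries disagreed on which was higher.

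Around the start the domains were not symmetric. In the 330 domains that held the start of exactly 1 gene, a median of 966 bp lay upstream and 1362 bp downstream, and the downstream side was longer in 223 (67.6%). In 5264 such narrow regions the medians were 407 and 497 bp, and the downstream side was longer in 59.6%. At 1 kb downstream, 77.3% of domains had a replicate 3 peak and 32.1% a replicate 2 peak, against 45.8% and 21.8% at 1 kb upstream. Nearer the start the libraries differed. At 500 bp replicate 3 peaks covered 96.97% downstream and 86.1% upstream, whereas replicate 2 peaks covered 45.5% downstream and 50.3% upstream, and at 250 bp 63.0% and 80.3%. The start base itself lay in a replicate 2 peak in 303 of the 330 domains (91.8%) and in a replicate 3 peak in all 330. The highest summit, the position of greatest signal in the highest peak, lay at a median of 86 bp upstream in replicate 2 and 82 bp in replicate 3, and within 100 bp of the start in 39.7% and 42.4%. For narrow regions the medians were 46 and 47.5 bp upstream, with 66.9% and 70.5% within 100 bp. The summits of both libraries were within 200 bp of each other in 89.4% of these domains and 96.4% of narrow regions.

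**Figure D4:**
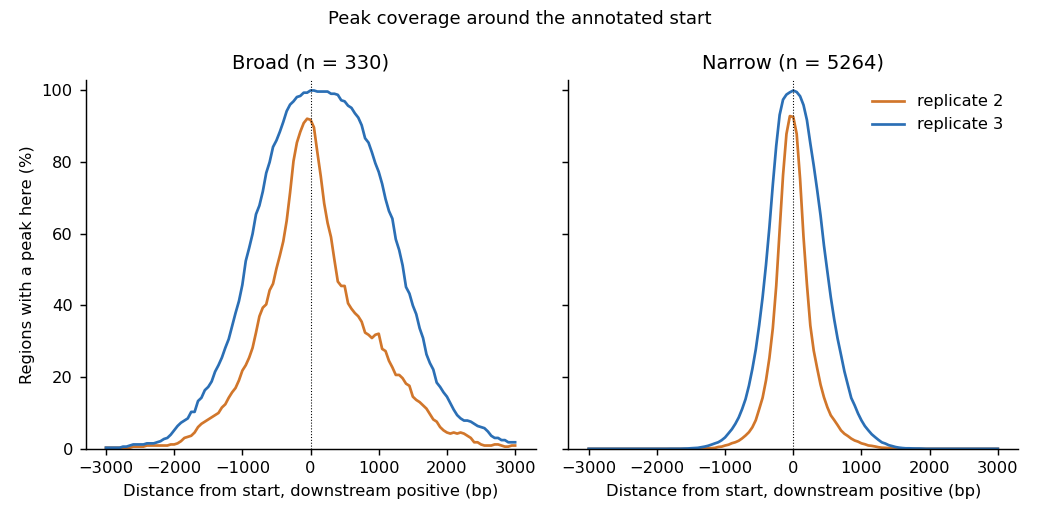
Share of regions with a peak (y axis, %) at each distance in bp from the annotated start (x axis, downstream positive) for 330 broad domains and 5264 narrow regions with 1 start. In broad domains the replicate 3 curve falls to 77.3% at 1 kb downstream and 45.8% at 1 kb upstream, and the replicate 2 curve, 32.1% and 21.8% there, lies below it and has a shoulder downstream.

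Starts on both strands lay in 61 of 417 domains (14.6%) and in 8.83% of narrow regions, and the wider regions had more room for them. The ends of 2 or more protein-coding genes were met by 100 domains (19.7%) and by 18.4% of narrow regions. The domain with most ends, 4, lay at *Cyb5d1*, *Naa38*, and *Tmem88* and had 2473 bp with folds of 10.8 and 13.8. The widest of those with 3 were *Flot1* with *Ier3*, *Gm20783* with *LOC108167694*, *Bax* with *Ftl1*, and *Cnot6l* with *Gm52799*. An end of a long noncoding RNA gene was met by 110 domains (21.7%). Such ends were not counted for narrow regions, and wider regions reach more ends by construction, so this share has no background here. Within 50 kb a domain had a median of 3 other shared regions, and a narrow region 2. Of shared regions at gene ends, 4.26% (chromosome 5) to 7.35% (chromosome 12) were domains on the autosomes. On chromosome X they were 5 of 243 (2.06%), and on Y 0 of 5, numbers too small to read an order from.

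A total of 8 of the 1005 miRNA hairpins in the table lay in a domain. Hairpins in narrow or other shared regions were not counted, so this number has no background and is not read as a trait of the domains. The mature sequences are shown because these hairpins lie in acetylated chromatin at a gene end. Bases 2 to 8, the seed, are in capitals.
miR-707: cAGUCAUGccgcuugccuacg
miR-1894-3p: gCAAGGGAgagggugaagggag
miR-1894-5p: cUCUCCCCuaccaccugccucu
miR-5130: cUGGAGCGcgcgggcgaggcaggc
miR-8112: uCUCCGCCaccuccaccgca
miR-2861: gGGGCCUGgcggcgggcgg
miR-1945: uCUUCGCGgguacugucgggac
miR-7654-3p: cGAGCGGGagcgcgccucgucc
miR-7655-3p: uUUAUGACgcuccgugggccug
miR-7655-5p: cGGCCCACggagcuccuaaaga
They lay at *Akt1s1* with *Tbc1d17* (*Mir707*), *Mrps18b* with *Ppp1r10* (*Mir1894*), *Kctd12* (*Mir5130*), *Krcc1* (*Mir8112*), *Cdk9* (*Mir2861*), *Gspt1* (*Mir1945*), *Arglu1* (*Mir7654*), and *Mllt10* (*Mir7655*). No seed was shared among them. These domains were 2021 to 3133 bp wide, with folds of 14.0 to 45.2 in replicate 2 and 27.4 to 90.9 in replicate 3. H3K27ac at a hairpin does not show that its miRNA is made.

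At the gene level, 605 of 21887 protein-coding genes (2.76%) had a broad domain within 1 kb of an end, another 9039 had a narrow region only, and 9644 (44.1%) had any shared region. These shares are the background for the lists that follow, which were compared by counts alone. A gene counts by either end, so its domain need not hold its start. For example, the listed starts of *Jund*, *Tgfb1*, and *Setd5* lay 508, 862, and 26046 bp from their domains. Because a broad domain requires a shared region, the share among genes with one, 6.27%, is a second background.

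Immediate-early and AP-1 genes, which are transcribed within minutes of a stimulus, held the most domains for their number among the lists. Of 27 listed genes, 12 (44.4%) had a broad domain, 14 a narrow one, and 1, *Egr2*, no peak. The 12 were *Ier3* (5089 bp), *Myc* (4137 bp), *Junb* (4123 bp), *Dusp1* (3575 bp), *Jun* (3487 bp), *Egr1* (3191 bp), *Zfp36* (2913 bp), *Ier2* (2526 bp), *Btg1* (2502 bp), *Btg2* (2331 bp), *Jund* (2136 bp), and *Cebpb* (2029 bp). *Jun*, the main AP-1 subunit gene, had folds of 50.8 in replicate 2 and 91.0 in replicate 3. *Btg2*, an antiproliferative gene, had 42.1 and 97.7, and *Btg1* 36.4 and 102.4. *Myc* had lower folds, 16.3 and 44.6, over a wider domain. The 14 narrow ones measured 702 to 1929 bp, with *Atf3* (1929 bp; 41.3 and 82.9), *Zfp36l1* (1878 bp; 24.4 and 48.8), and *Fosl2* (1873 bp; 31.2 and 57.6) closest to the boundary and *Nr4a1* (702 bp; 7.46 and 24.8) farthest from it. *Fos*, the partner of Jun, had 1710 bp with folds of 13.1 and 28.9. Ranked by the bases of replicate 2 alone, 14 of the 27 (51.9%) were in the first 508 regions. The methods describe enzymatic perfusion and bead selection of LSECs, followed by plating and some hours of culture, and do not say whether the cells fixed for H3K27ac were cultured. Handling cannot be told apart from the state of these genes in the liver.

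**Figure D5:**
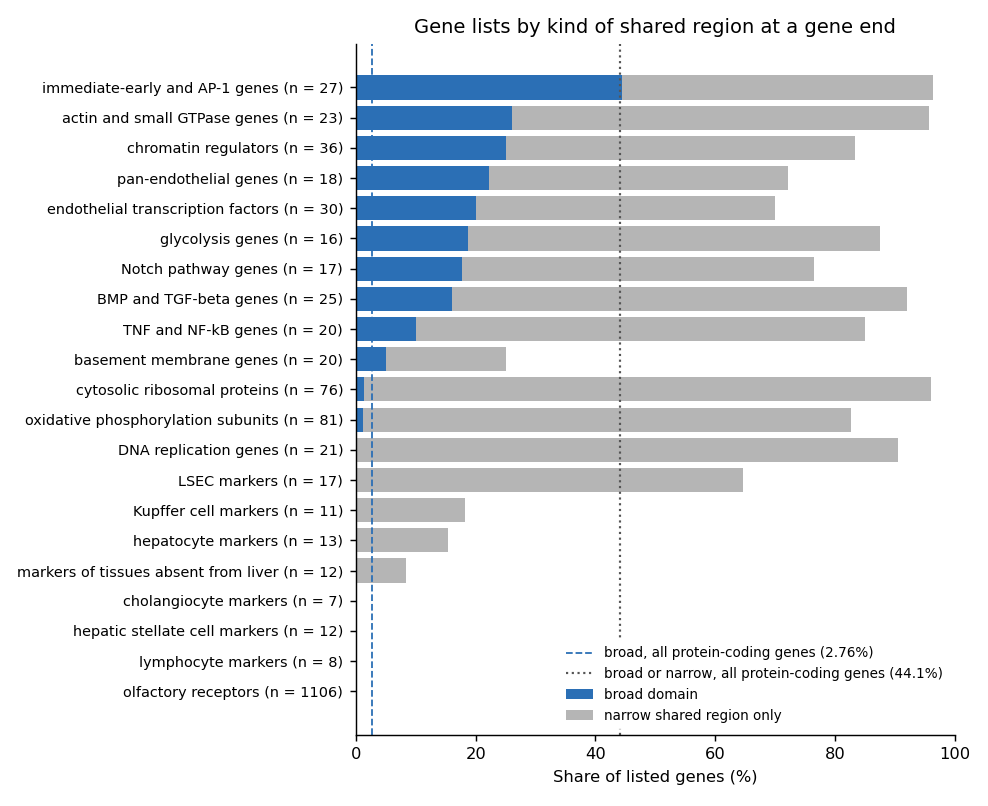
Share of the genes of each list (x axis, %) with a broad domain (blue) or a narrow shared region only (gray). Dashed and dotted lines mark all protein-coding genes, 2.76% with a broad domain and 44.1% with any shared region. Immediate-early and AP-1 genes reach 44.4% broad, while ribosomal protein, oxidative phosphorylation, and DNA replication genes are mostly gray.

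Endothelial genes were listed by kind. Of 18 pan-endothelial genes, 4 (22.2%) had a broad domain and 9 a narrow one. *Eng* had 3203 bp with folds of 11.6 and 14.1. *Cdh5*, which encodes VE-cadherin of endothelial junctions, had 2839 bp (16.3 and 36.1), *Esam*, an adhesion gene whose domain *Msantd2* also meets, 2703 bp (19.7 and 53.7), and *S1pr1*, a sphingosine phosphate receptor gene, 2429 bp (11.6 and 15.3). All 4 were below the median domain in both libraries by fold, and ranked by replicate 2 bases alone, 1 of the 18 genes was in the first 508 regions (5.56%, against 2.84% of all protein-coding genes). *Pecam1* had a narrow region of 1036 bp (13.6 and 13.0), and *Cldn5* one of 1583 bp (8.68 and 64.4). *Emcn* and *Icam2* had no peak at an end.

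LSEC markers, the list that checks the labelled cell type, had no broad domain among 17 genes. A list this short cannot tell 0 from the 2.76% of all protein-coding genes. A narrow region was found at 11 of the 17 (64.7%), against 44.1% of all protein-coding genes with any shared region. *Bmp2*, an angiocrine ligand gene, was the widest with 1571 bp (11.5 and 32.6), followed by *Flt4*, the VEGF receptor 3 gene, with 1442 bp (12.2 and 46.5). *Kdr*, the VEGF receptor 2 gene, had 961 bp (22.4 and 60.3), and *Lyve1*, a hyaluronan receptor gene, 920 bp (12.9 and 39.5). The scavenger receptor gene *Stab1* had 815 bp (8.81 and 23.3), and *Fcgr2b*, an Fc receptor gene, 574 bp (10.98 and 12.2). *Stab2*, *Clec4g*, *Mrc1*, and *Rspo3* had a peak in 1 library only, and *Cd36* and *Wnt9b* in neither. Markers of other cells were rarer. None of 13 hepatocyte markers had a broad domain and 2 (*Trf* and *Ass1*) had a narrow region, none of 11 Kupffer cell markers and 2 (*Cd68* and *Spi1*), and 0 and 0 for 12 hepatic stellate cell, 7 cholangiocyte, and 8 lymphocyte markers. Of 12 markers of tissues absent from liver, 1 (*Syn1*) had a narrow region of 312 bp. None of 1106 olfactory receptor genes had a shared region.

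Endothelial transcription factors had 6 domains among 30 genes (20%) and 15 narrow regions, and 3 of the 30 were in the first 508 regions by replicate 2 bases. *Klf6* had 3625 bp with folds of 44.5 and 127.4, and *Klf4*, a factor induced by laminar flow, 3617 bp with 31.7 and 82.7. *Tal1* had 2397 bp (15.6 and 30.9), *Zeb1* 2376 bp (10.2 and 11.95), and *Sox7* 2015 bp (24.4 and 57.3). *Klf2*, the related flow-induced factor, was as high as *Klf6* in replicate 2 (44.7, and 113.3 in replicate 3) over only 1274 bp. *Gata4*, a factor that specifies LSECs, had a narrow region of 678 bp (8.13 and 11.97), and *Foxo1* one of 1906 bp (10.98 and 33.9). *Erg*, *Mef2a*, *Mef2c*, and *Rbpj* had no peak at a gene end. Body ends miss internal starts. When annotated starts were added to the ends, 56 more domains were found, among them *Mef2a*, the chromatin remodeling gene *Arid1a*, and *Nfkb2*, and the LSEC markers stayed at 0.

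In the signaling lists, *Nfkbia* and *Nfkbib* (2438 bp; 32.5 and 100.9), both inhibitors of NF-κB, were the only domains among 20 TNF and NF-κB genes (10.0%), and 15 others had narrow regions. *Rel* (1869 bp; 24.4 and 39.1) and *Nfkb1* (1825 bp; 15.3 and 21.7), which encode NF-κB subunits, were the widest of these, and *Tnf* itself had a peak in 1 library only. Of 17 Notch pathway genes, 3 (17.6%) had domains: *Lfng*, a glycosyltransferase that modifies Notch (2171 bp; 28.5 and 93.5), the coactivator *Maml1* (2094 bp; 24.4 and 72.2), and the target *Hes1* (2045 bp; 28.5 and 88.2). All 3 lay within 200 bp of the boundary. The receptors *Notch1*, *Notch2*, and *Notch4* had narrow regions of 968 to 1462 bp. Of 25 BMP and TGF-β genes, 4 (16.0%) had domains, namely *Tgif1*, *Eng*, *Skil* (2516 bp; 43.4 and 127.0), and the ligand *Tgfb1* (2407 bp; 25.8 and 80.4). *Tgif1* and *Skil* encode nuclear repressors of Smad signaling. *Smad2* (1932 bp) and *Bmpr2* (1877 bp) were the widest of the 19 narrow regions.

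Chromatin regulators had domains at 9 of 36 genes (25%). The widest were *Brd2* and *Kmt2e* (3200 bp; 39.99 and 91.8), then *Setd5* (2852 bp; 45.3 and 77.9), *Kdm6b*, a demethylase of H3K27 (2838 bp; 26.4 and 44.2), and *Chd7* (2811 bp; 21.0 and 40.1). *Arid2*, *Nsd1*, and *Kmt2c* had 2175 to 2501 bp. *Ep300* and *Crebbp*, the acetyltransferases of the mark itself, had narrow regions of 1802 bp (18.3 and 75.5) and 1724 bp (19.0 and 44.0). Of 23 genes of the actin cytoskeleton and its small GTPases, 6 (26.1%) had domains. *Tagln2* had 3924 bp (12.9 and 27.2), *Rhob*, an early-response GTPase gene, 3227 bp (22.0 and 89.9), *Rhoc* 3220 bp (20.3 and 45.5), *Msn* 2247 bp (18.3 and 31.6), *Zyx*, a focal adhesion gene, 2230 bp (40.9 and 157.6), and *Rac1* 2087 bp (17.1 and 62.4). *Actb* lay just short of the boundary with 1964 bp (37.3 and 95.3). Glycolysis genes had 3 of 16 (18.8%), with *Gapdh* at 2674 bp, *Pgk1* at 2519 bp, and *Pkm* at 2211 bp.

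Some lists were acetylated at most genes yet narrow at the boundary of 2000 bp. Of 76 cytosolic ribosomal protein genes, 73 (96.1%) had a shared region but only *Rpl7*, which shares its domain with *Rdh10*, had a broad one (1.32%), and the other 72 measured 508 to 1855 bp. This depends on the boundary: at a width of at least 1500 bp, 13 of the 76 (17.1%) passed, against 7.99% of all protein-coding genes. Oxidative phosphorylation subunits had 1 of 81 (*Atp5j*, shared with *Gabpa*) and 66 narrow regions of 419 to 1688 bp. That is 1.235%, against 2.76% of all protein-coding genes, and 1 domain is too few to tell these apart. The order also depends on the window: at 2.5 kb, 4 of the 81 (4.94%) passed, against 3.015% of all protein-coding genes. Among genes with a shared region, 1.37% of ribosomal protein genes and 1.49% of these subunits had a broad domain, against 6.27% of all. DNA replication genes had 0 of 21, too few genes to tell from 2.76% or 6.27%, and 19 narrow regions. The folds of these narrow regions could be high, as at *Gins2* (36.6 and 130.1 over 792 bp) and *Mcm4* (42.0 and 86.0 over 1433 bp). A high peak was therefore not always a wide one. Basement membrane genes had 1 of 20, *Lamc1*, the laminin γ1 chain gene (2399 bp; 27.5 and 41.2), and 4 narrow regions. *Col4a1* and *Col4a2*, the type IV collagen genes the study examined, had a peak at their ends in 1 library only. Only gene ends were looked at here, not the putative enhancer regions that the paper proposes for these genes from H3K27ac in LSECs.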

How the data were processed

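The data are H3K27ac ChIP-Seq peaks from mouse LSECs, in 2 libraries. The authors deposited a list of peaks per library, with 10 columns a peak: positions, score, fold enrichment (a ratio to background), −log10 p-value, −log10 q-value, and summit. The submitters' processing notes name cutadapt 0.4.4, BWA 0.7.17, Picard 1.67, MACS2 2.0.10, bedtools 2.27.1, and the build mm10 (GRCm38). Peak settings, duplicate filters, and the use of the inputs are not given in the sources used here. Deposited q-values reached at most 0.00907 (replicate 2) and 0.00981 (replicate 3). No read counts are given, so depth and counting error of a fold are unknown, and a deeper library yields more and wider peaks.

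Positions were printed counted from 1. Peaks were pooled and merged, gene bodies were taken from RefSeq GRCm38, which lists no strand, and starts and strand from 32851 RefSeq promoters, which matched 17492 of 21887 protein-coding genes. A motif or CpG ratio was read from 300 bases at 1 start a gene. The genes named are those at the 25 widest domains, those of the gene and marker lists, those at the 5 domains just inside and 5 regions just outside the width limit, those at the highest and lowest fold in each library, those of the 5 domains with most gene ends, *Col4a1* and *Col4a2*, and the LSEC genes of the study. A few genes that fall under this rule are not reported here. The genes with a wide replicate 2 peak, with a pair of domains, without a listed start, with a tied lowest fold, at printed promoters of extreme CpG ratio, or at miRNA hairpins were named after their values were seen. The domains and lists were chosen with earlier results of these data known. No significance test was made, since the rule used the peaks and there is 1 condition. Merging, end matching, and motif counts were tested on simulated data. Alternatives changed the q-value, overlap, joining, width, window, gene end, and library. Scripts ran under Python 3.11.15 with pandas 2.3.3 on numpy 2.4.6, and with scipy 1.17.1 for rank correlations. Figures were drawn with matplotlib 3.10.9.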

Additional observations from a re-analysis of the deposited data

How the results depend on the processing

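Over 14 results and 12 settings, 112 alternatives were computed, and 68 stayed within the limit set for each. The limit was 1.5 times for a count and the 95% interval of the value otherwise. The other 44 moved. The limit did not test whether a gene list changed sides against all protein-coding genes. Some lists did, such as ribosomal protein genes and oxidative phosphorylation subunits, given below. The 508 domains became 150 with a reciprocal overlap of at least 50%, 1327 when peaks within 500 bp were joined, 1466 at a width of at least 1500 bp, 72 at 3000 bp, and 60 when only bases covered by both libraries counted toward the width. In that order, the share of shared gene-end regions was 3.51%, 15.3%, 16.3%, 0.801%, and 0.668% in place of 5.65%, and 5.12% with a window of 2.5 kb. The share of protein-coding genes was 0.854%, 7.13%, 7.99%, 0.384%, and 0.324% in place of 2.76%, 3.02% with that window, and 3.02% with annotated starts added. Domains at least 2000 bp wide in replicate 2 alone were 11.3% under reciprocal overlap, 8.44% with joining, and 33.3% by bases of both libraries, in place of 3.94%. For replicate 3 alone they were 96.0% under reciprocal overlap and 100% by bases of both, in place of 98.6%. The median CpG ratio was 0.803 at 3000 bp, in place of 0.856.

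With 1 library left out, the number of domains was 19 (replicate 3 left out) to 503 (replicate 2 left out), their share of gene-end regions 0.191% to 3.43%, the share of genes 0.101% to 2.75%, and the median CpG ratio 0.803 to 0.855. Replicate 3 decides the count. Without it, the immediate-early list had 1 of 27 domains, chromatin regulators 3 of 36, and endothelial transcription factors and pan-endothelial genes 0. Of 48 alternatives for the lists, 15 moved. The number of immediate-early domains was 19 at 1500 bp and 6 at 3000 bp. Ribosomal protein genes had 1 of 76, and 13 at 1500 bp. They stood below all protein-coding genes at 2000 bp (1.32% against 2.76%) and above them at 1500 bp (17.1% against 7.99%). Oxidative phosphorylation subunits had 1 of 81 (1.235%) in the main setting, and 4 of 81 with a window of 2.5 kb. The latter, 4.94%, was above the 3.02% of all protein-coding genes with that window. The ranking by replicate 2 bases and the added starts were chosen after seeing the data. No paired analysis was possible because the H3K27ac libraries form 1 condition and the inputs that share their numbers were not analysed on their own. Depth is unknown, so a region narrow or missing in replicate 2 was not detectable as wide there and is not shown to lack the mark.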
